A study of Homo sapiens with 12 samples.

Results

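The 10 genes described here encode cytokines of the interleukin 6 (IL6) and interleukin 11 (IL11) family, their receptors and their signaling proteins. They are the cytokines IL11, LIF, IL6 and CLCF1, the receptor subunits OSMR, LIFR, IL6ST and IL11RA, the transcription factor STAT3 and the feedback inhibitor SOCS3. Members were taken by gene name from a table of 58735 genes, and each of the 10 names was found. HK-2, an immortalized line of human renal proximal tubular epithelial cells, was profiled by poly(A) RNA sequencing in 12 samples, 3 in each of 4 groups. The Control group received water (H2O). The Iohexol group received 75 mg I/mL of this iodinated contrast medium, the Cisplatin group 5 μM of this platinum compound, and the Vancomycin group 4 mM of this glycopeptide antibiotic, each for 48 h. All groups are 1 cell line grown in the same serum-containing medium, and the labels name no separate donors or cultures, so p-values measure the spread between these samples, which may be technical.

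Cytokines of this family bind a receptor complex that contains IL6ST (gp130), the shared signal-transducing subunit. IL6, IL11 and CLCF1 first bind an alpha receptor, which for CLCF1 is CNTFR, whereas LIF binds LIFR directly, and both LIF and CLCF1 signal through LIFR together with IL6ST. Janus kinases bound to the receptors phosphorylate STAT3, which enters the nucleus and activates genes such as SOCS3, whose product inhibits IL6ST signaling. In the kidney, injured tubular cells are known to be a source of these cytokines.

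The start regions of IL11 and IL6 are shown because these 2 cytokines followed different patterns over the drugs. They come from RefSeq (GRCh38.p14), read 5′ to 3′ on the strand of the gene and upstream of the annotated start. Capitals mark letters that match a searched motif. IL11 lies on the minus strand, and its 250 bases are chr19:55370464-55370713. IL6 lies on the plus strand, and 197 bases, chr7:22726950-22727146, are shown, since the 53 bases next to the start lie in exons of another IL6 transcript.
IL11: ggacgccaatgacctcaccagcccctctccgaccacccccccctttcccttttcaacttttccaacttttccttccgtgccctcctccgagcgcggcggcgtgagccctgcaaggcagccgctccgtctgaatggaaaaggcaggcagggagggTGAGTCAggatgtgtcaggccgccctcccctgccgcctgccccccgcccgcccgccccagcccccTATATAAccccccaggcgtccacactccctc
IL6: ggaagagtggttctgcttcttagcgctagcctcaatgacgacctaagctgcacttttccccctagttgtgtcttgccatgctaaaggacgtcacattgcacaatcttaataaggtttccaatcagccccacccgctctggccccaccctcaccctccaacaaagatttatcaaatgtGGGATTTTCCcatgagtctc

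The motifs searched on both strands were AP-1 with the letters TGANTCA, STAT with TTCNNNGAA, CRE with TGACGTCA, TATA with TATANAA, and NF-kB with GGGA and TTTCC around any 1 base. IL11 held an AP-1 match at -96 to -90 and a TATA match at -31 to -25 from the start. IL6 held an NF-kB match at -73 to -64. Of 35116 promoters of 250 bases, 6.57% held the AP-1 letters, 8.41% the TATA letters and 0.527% the NF-kB letters. The table held promoters of 8 of the 10 members, in 12 windows. The STAT letters, present in 6.57% of all promoters, occurred in 2 windows of LIFR and in none of the other windows. A LIFR window with a match overlaps exons of other genes. The windows of SOCS3, IL6, LIFR and IL11RA did not cover the bases directly upstream of the gene start used for counting. Those bases were not searched, and the IL6 and LIFR matches lie downstream of that start. A match is a description of the letters and not evidence of binding.

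Total counts were between 14057282 and 18177109 per sample, and 3 counts, the smallest number treated as a signal, correspond to 0.165 to 0.213 CPM. CPM here is the count scaled by the sample's total count and its TMM factor. This floor covers counting error only, whereas the standard errors and 95% intervals below come from the fits and hold the spread between samples. In pairwise comparisons of counts, control replicate 1, iohexol replicate 3 and vancomycin replicate 2 each stood farthest from the other samples of its group. Of the markers of the labelled cell type, 8 of 11 tubule markers had a mean of at least 1 CPM, but LRP2, AQP1 and SLC34A1 did not. Of 5 epithelial markers 4 reached that level, and CDH1 did not. The summed tubule markers were 397 to 421 CPM with cisplatin, 924 to 1106 CPM with iohexol, 876 to 974 CPM with vancomycin and 759 to 885 CPM in control samples. The summed epithelial markers were 1229 to 1281 CPM with cisplatin, 1228 to 1346 CPM with vancomycin, 634 to 770 CPM with iohexol and 763 to 852 CPM in control samples. The summed fibroblast markers, of which 3 of 7 reached 1 CPM, were 241 to 277 CPM with vancomycin and 115 to 129 CPM in control samples. Of 7 immune markers 3 reached 1 CPM, and PTPRC, CD68 and CD3E were among those that did not. Of 5 endothelial markers 1 reached it. The part of these shifts in the results below was not tested. In bulk samples a lower share of a cell state and less RNA per cell cannot be told apart.

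Of the 10 members, IL11 had the largest log2 fold change with each drug. Compared with control, 3 of the 10 members were called with iohexol at an adjusted p under 0.05 in edgeR's quasi-likelihood test, 1 higher and 2 lower, where 21% of all genes tested were called (11.2% higher, 9.77% lower). With cisplatin 7 were called, 4 higher and 3 lower, against 59.8% of all genes (29.2% higher, 30.6% lower). With vancomycin 7 were called, 6 higher and 1 lower, against 57.9% (29% higher, 28.8% lower). The shares called in either direction lay near those of all genes. The split by direction did not with vancomycin, where 6 of the 10 members were higher and 1 was lower. The members and the gene lists further below were chosen with earlier results of these data known. Their departures from the shares of all genes are therefore a description and not a test. The samples of drug and control did not overlap for 4, 7 and 8 members with iohexol, cisplatin and vancomycin, beside 37.9%, 65.1% and 63.2% of all genes. Members that were also DEGs, with a log2 fold change above 1 or below -1, numbered 2 with iohexol (5.28% of all genes), 1 with cisplatin (16.3%) and 3 with vancomycin (18.5%). The median log2 fold change of the members was -0.07 with iohexol, 0.00 with cisplatin and 0.69 with vancomycin, beside 0.01, 0.01 and -0.01 over all genes. All 3 comparisons share the same control samples. Without iohexol replicate 3, 5 members were called with iohexol. Scaling by library size only moved the median over all genes with cisplatin to 0.23 and the share of DEGs that were higher from 46.6% to 65%. Under that scaling LIF (-0.61), IL6 (-0.32) and OSMR (-0.31) were still called lower with cisplatin, and 8 members were called, 5 higher and 3 lower.

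**Figure D1:**
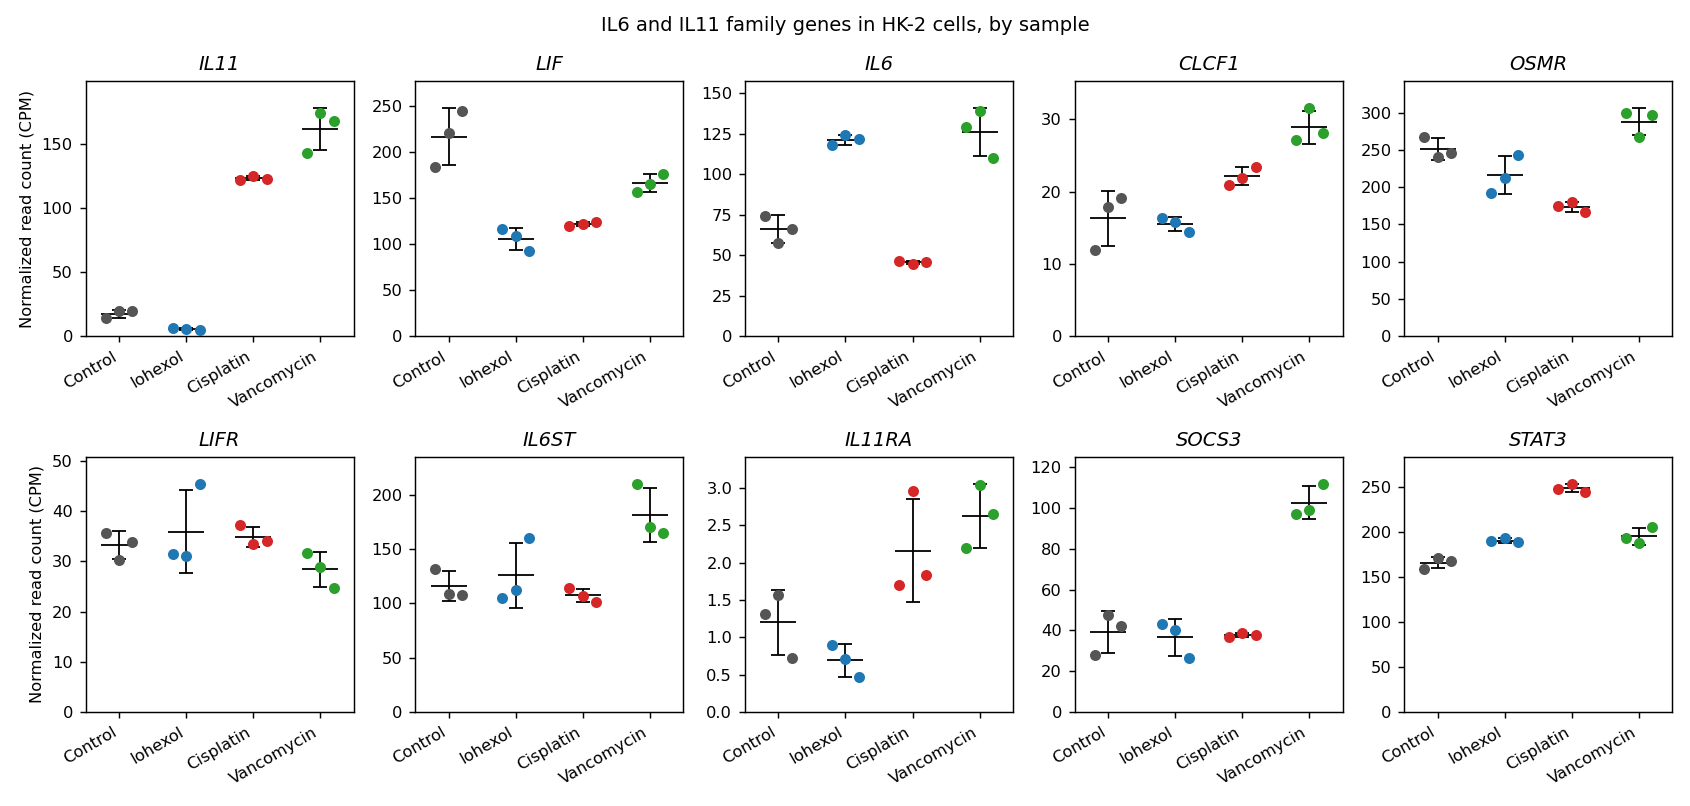
Normalized read count (CPM, linear axis from 0) of each of the 10 genes in each of the 12 samples. Points are samples, and the bar and whiskers are the mean ± SD of 3 samples. IL11 is at most 19.4 CPM in the control and iohexol samples and at least 122 CPM in all cisplatin and vancomycin samples.

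IL11, a cytokine known for its profibrotic action in epithelial and stromal tissue, was 14.1, 19.4 and 19.3 CPM in the control samples and 6.29, 5.82 and 4.68 CPM with iohexol. It was 122, 125 and 123 CPM with cisplatin and 143, 174 and 167 CPM with vancomycin. No group overlapped another. The log2 fold change against control was -1.64 ± 0.18 (SE) with iohexol (edgeR adjusted p = 5.41e-05), 2.80 ± 0.10 with cisplatin (adjusted p = 1.7e-13) and 3.15 ± 0.12 with vancomycin (adjusted p = 2.73e-16). These correspond to 6.97-fold and 8.86-fold higher levels with cisplatin and vancomycin. IL11 was lower with cisplatin than with vancomycin by a log2 difference of -0.39 ± 0.10 (edgeR adjusted p = 0.00278), but this call was lost when samples were scaled by library size only (-0.05, adjusted p = 0.673).

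LIF, a cytokine that signals through LIFR and IL6ST, was lower with all 3 drugs. It was 184, 221 and 245 CPM in the control samples, 117, 109 and 93.1 CPM with iohexol, 119, 122 and 125 CPM with cisplatin and 157, 165 and 177 CPM with vancomycin. All drug samples lay below the lowest control sample. The log2 fold change was -1.01 ± 0.12 with iohexol (edgeR adjusted p = 0.000116), -0.83 ± 0.08 with cisplatin (adjusted p = 1.19e-07) and -0.42 ± 0.10 with vancomycin (adjusted p = 0.000672). The fall with iohexol lay at the edge of the DEG threshold and was -0.93 without control replicate 3 and -0.92 without iohexol replicate 3, which leaves 1 DEG among the members. Cisplatin and iohexol did not differ past the threshold (log2 difference iohexol against cisplatin -0.20, 95% interval -0.41 to 0.01, adjusted p = 0.0999), but the difference was called with library size only (-0.33, adjusted p = 0.00995) and without iohexol replicate 1 (-0.27, adjusted p = 0.0453).

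IL6, the founding cytokine of the family and an inducer of acute-phase proteins, rose with iohexol and vancomycin and fell with cisplatin. It was 74.5, 57.7 and 66.5 CPM in the control samples and 118, 124 and 122 CPM with iohexol. With cisplatin it was 46.3, 44.6 and 45.9 CPM, below every control sample, and with vancomycin it was 129, 139 and 110 CPM. The iohexol and vancomycin samples overlapped each other and lay above every other sample. The log2 fold change was 0.89 ± 0.11 with iohexol (edgeR adjusted p = 0.000117), -0.54 ± 0.09 with cisplatin (adjusted p = 5.19e-05) and 0.89 ± 0.11 with vancomycin (adjusted p = 1.39e-07). Iohexol and vancomycin differed by -0.06 on the log2 scale (95% interval -0.25 to 0.14, adjusted p = 0.638). Thus with iohexol IL6 was higher while IL11 was lower, and with cisplatin IL6 was lower while IL11 was higher. Of the IL6 exon bases, 20.7% are shared with an antisense gene, AC073072.1, which had 164 counts over all samples against 16597 for IL6.

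CLCF1, a cytokine that signals through LIFR and IL6ST, was 12.0, 17.9 and 19.1 CPM in the control samples and 16.3, 15.8 and 14.5 CPM with iohexol. It was 21.0, 22.0 and 23.4 CPM with cisplatin and 27.2, 31.5 and 28.1 CPM with vancomycin. The cisplatin and vancomycin samples did not overlap each other or the control samples, whereas the iohexol samples lay among the control samples. CLCF1 was lower with cisplatin than with vancomycin by -0.38 ± 0.13 (edgeR adjusted p = 0.0163). That call was lost with library size only (-0.05, adjusted p = 0.754), without cisplatin replicate 1 (adjusted p = 0.0649) and without vancomycin replicate 2 (adjusted p = 0.0604). Values against control follow. The log2 fold change was 0.43 ± 0.14 with cisplatin (edgeR adjusted p = 0.0113) and 0.78 ± 0.14 with vancomycin (adjusted p = 4.6e-05), and it was -0.06 ± 0.17 with iohexol (adjusted p = 0.846).

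**Figure D2:**
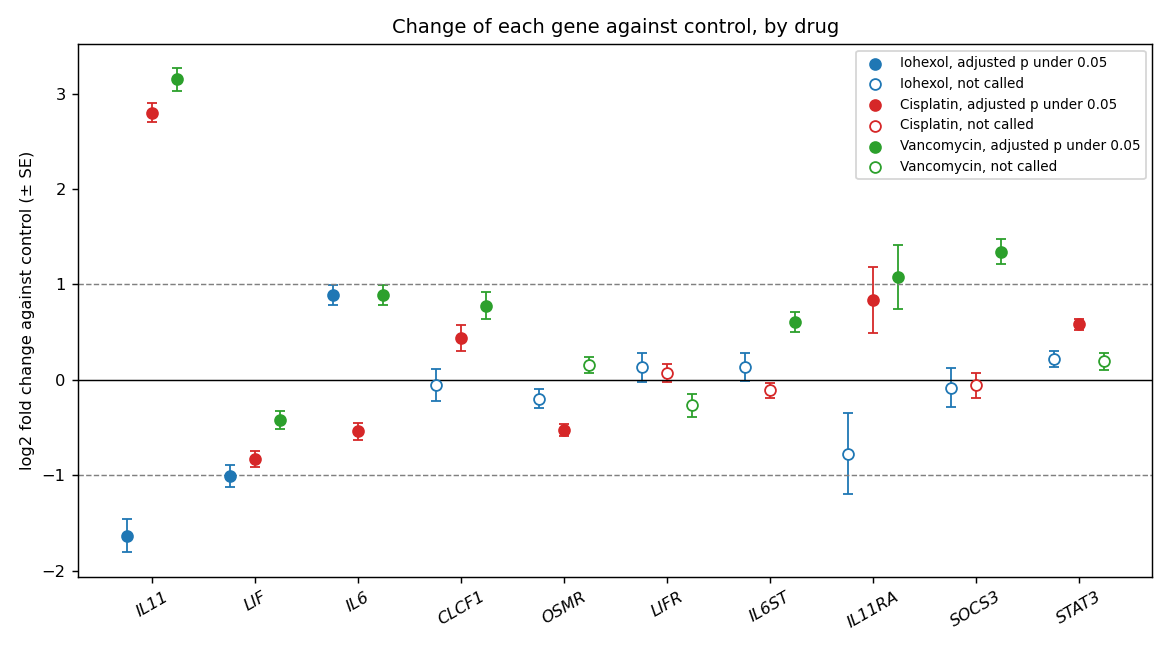
log2 fold change against control (± SE of the fit) of the 10 genes for each drug. Filled points had an adjusted p under 0.05, open points did not, and dashed lines mark log2 fold changes of 1 and -1. IL11 spans from -1.64 with iohexol to 3.15 with vancomycin.

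Among the receptor subunits, IL6ST was higher with vancomycin, OSMR was lower with cisplatin, and LIFR was called with no drug. IL6ST was 132, 109 and 108 CPM in the control samples and 210, 170 and 165 CPM with vancomycin. The iohexol samples, at 105, 112 and 160 CPM, and the cisplatin samples, at 114, 107 and 102 CPM, overlapped the control samples. With vancomycin its log2 fold change was 0.60 ± 0.11 (edgeR adjusted p = 3.06e-05).

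OSMR, the subunit that binds oncostatin M together with IL6ST, was 268, 240 and 246 CPM in the control samples and 175, 180 and 167 CPM with cisplatin, without overlap, a log2 fold change of -0.53 ± 0.06 (edgeR adjusted p = 1.36e-06). Iohexol (192, 212 and 244 CPM) and vancomycin (300, 267 and 296 CPM) overlapped the control samples and did not pass the threshold. Without iohexol replicate 3, OSMR was -0.29 with iohexol (adjusted p = 0.0159), and without vancomycin replicate 2 it was 0.21 with vancomycin (adjusted p = 0.0425).

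LIFR was 35.6, 30.2 and 33.9 CPM in the control samples and 31.7, 28.8 and 24.7 CPM with vancomycin, with overlap. Its log2 fold change with vancomycin was -0.27 ± 0.12 (edgeR adjusted p = 0.0562), and with iohexol and cisplatin 0.13 and 0.07. The iohexol samples were 31.4, 30.9 and 45.4 CPM, so that replicate 3 stood above the others. With library size only, LIFR was called with cisplatin (0.29, adjusted p = 0.0111) and vancomycin (-0.34, adjusted p = 0.016). The vancomycin value also passed without control replicate 2 (-0.34, adjusted p = 0.0404) and without vancomycin replicate 1 (-0.35, adjusted p = 0.0248).

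IL11RA, the alpha receptor that gives IL11 its specificity, was counted at low depth. It had 18, 25 and 11 reads in the control samples, 13, 11 and 7 with iohexol, 28, 48 and 31 with cisplatin and 35, 45 and 43 with vancomycin. It was higher by a log2 fold change of 0.84 ± 0.35 with cisplatin (edgeR adjusted p = 0.0455) and 1.08 ± 0.34 with vancomycin (adjusted p = 0.00888). The cisplatin call was lost without control replicate 3 (0.56, adjusted p = 0.177), without cisplatin replicate 2 (0.55, adjusted p = 0.244) and with DESeq2 (adjusted p = 0.0686). The vancomycin call was lost without control replicate 3 (0.81, adjusted p = 0.0552). Of its exon bases 17.7% are shared with other genes. AL162231.3 shares 9.6% and had 0 counts over all samples. GALT shares 7.82% and had 967 counts over all samples against 315 for IL11RA.

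STAT3 and SOCS3 were called with different drugs, although with vancomycin the samples of both lay above every control sample. STAT3 was 159, 171 and 167 CPM in the control samples, 190, 193 and 188 CPM with iohexol, 248, 253 and 245 CPM with cisplatin and 193, 187 and 206 CPM with vancomycin. All drug samples lay above all control samples, but only the cisplatin change was called (log2 fold change 0.58 ± 0.06, edgeR adjusted p = 1.42e-07). The values with iohexol and vancomycin were 0.22 ± 0.08 (adjusted p = 0.075) and 0.19 ± 0.09 (adjusted p = 0.0574). In the fit of all 4 groups both passed (adjusted p = 0.0415 and 0.00775). The iohexol value also passed with library size only (adjusted p = 0.0233) and without iohexol replicate 3 (adjusted p = 0.0392). It passed too without control replicate 1 and iohexol replicate 3 together (adjusted p = 0.0133). The vancomycin value also passed with DESeq2 (adjusted p = 0.0353) and with at least 10 counts in every sample (adjusted p = 0.0381). It passed too with a replicate block (adjusted p = 0.0238) and without vancomycin replicate 2 (adjusted p = 0.0315), but not with library size only (adjusted p = 0.248). Under the other alternatives each value stayed uncalled.

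SOCS3 was 27.9, 47.7 and 42.0 CPM in the control samples, 43.3, 40.0 and 26.5 CPM with iohexol, 36.6, 38.7 and 37.9 CPM with cisplatin and 97.0, 99.1 and 112 CPM with vancomycin. The vancomycin samples lay above every other sample, and the other 3 groups overlapped. Against control, the vancomycin log2 fold change was 1.34 ± 0.13 (edgeR adjusted p = 5.87e-09), and it was -0.08 ± 0.20 with iohexol and -0.06 ± 0.13 with cisplatin. Without control replicate 1 the cisplatin value was -0.26 and was called (adjusted p = 0.00473). SOCS3 was lower with cisplatin than with vancomycin by -1.44 ± 0.16 (adjusted p = 1.37e-07). IL11 was above control with both drugs, and a link between IL11 and SOCS3 was not tested.

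Between drugs, 6 of the 10 members were called for iohexol against cisplatin (54% of all genes), 8 for iohexol against vancomycin (56.6%) and 8 for cisplatin against vancomycin (64.7%). The IL11 difference was -4.46 ± 0.13 for iohexol against cisplatin (edgeR adjusted p = 2.52e-15) and -4.85 ± 0.14 for iohexol against vancomycin (adjusted p = 6.23e-16). IL6 was 1.41 ± 0.10 higher with iohexol than with cisplatin (adjusted p = 3.11e-10) and was lower with cisplatin than with vancomycin by -1.47 ± 0.10 (adjusted p = 9.46e-11). STAT3 was 0.35 ± 0.07 higher with cisplatin than with vancomycin (adjusted p = 2e-04).

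Per gene length (RPKM), LIF was the most abundant member in the control samples at 54.6 ± 7.81 (SD, n = 3), followed by OSMR at 35.0 ± 2.04 and IL6 at 32.0 ± 4.06. IL11 was 6.59 ± 1.14 RPKM in control samples, and reached 46.1 ± 0.58 with cisplatin and 60.4 ± 6.09 with vancomycin. With vancomycin the mean levels of IL11 and IL6, 60.4 and 60.9 RPKM, lay within their spread. IL6ST was 12.5 ± 1.46 RPKM and LIFR 2.80 ± 0.23 RPKM in control samples. IL11RA was the lowest member in every group, from 0.161 RPKM with iohexol to 0.615 RPKM with vancomycin.

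**Figure D3:**
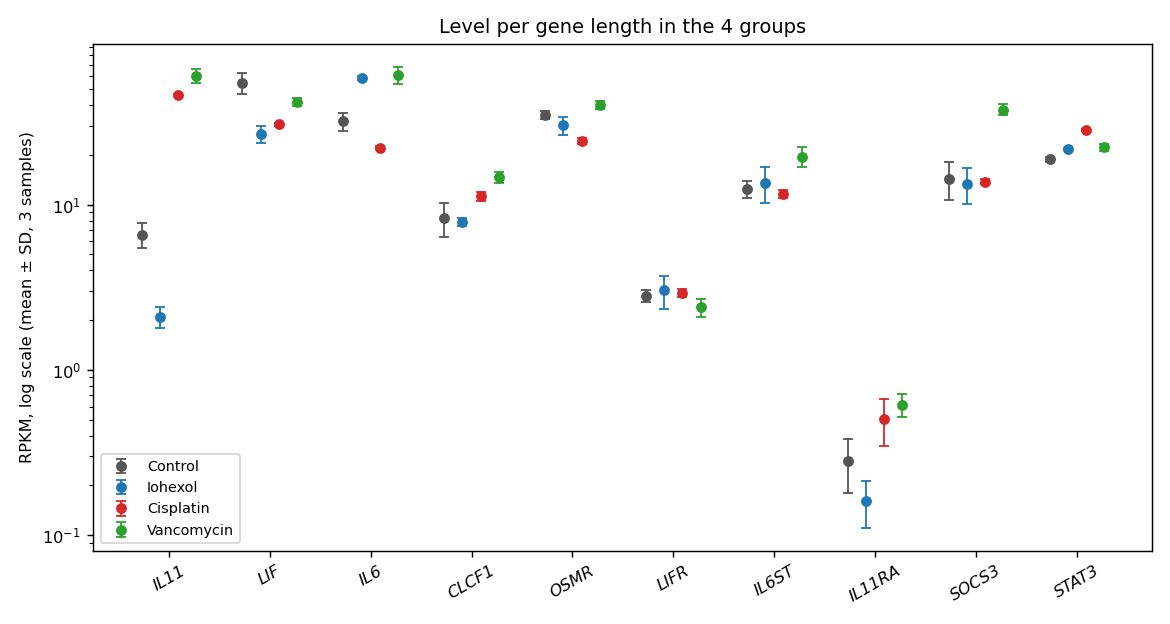
Level per gene length (RPKM, log axis) of the 10 genes in the 4 groups, as mean ± SD of 3 samples. IL11RA lies below 1 RPKM in every group, and IL11 spans from 2.09 RPKM with iohexol to 60.4 RPKM with vancomycin.

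The wider pathway was described with lists of genes, whose counts stand beside the 21%, 59.8% and 57.9% of all genes called with iohexol, cisplatin and vancomycin. Of 7 other cytokines and soluble subunits, 3 passed the filter, and 0, 1 and 2 of them were called with iohexol, cisplatin and vancomycin. EBI3, a subunit of IL27, was higher with cisplatin (0.41) and vancomycin (0.49) (edgeR adjusted p = 0.00399 and 0.00136). CTF1, IL27 and IL31 had at most 2 reads in any sample. Of 4 other receptors, IL6R, the alpha receptor of IL6, was higher with all 3 drugs, at 0.73 ± 0.10 with iohexol, 0.54 ± 0.08 with cisplatin and 1.27 ± 0.10 with vancomycin (edgeR adjusted p = 0.000442, 2.97e-05 and 3.47e-10). Both ADAM10 and ADAM17, proteases that release soluble receptors, were lower with cisplatin (-1.20 and -0.86), whereas with vancomycin ADAM10 was lower (-0.93) and ADAM17 higher (0.50).

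Of 12 genes of the JAK and STAT machinery, 3 were called with iohexol (1 higher, 2 lower), 10 with cisplatin (2 higher, 8 lower) and 7 with vancomycin (3 higher, 4 lower), where the shares over all genes were 21%, 59.8% and 57.9%. The medians of this list were -0.10, -0.25 and -0.12. The cisplatin split depended on the scaling, as 4 were higher and 3 lower with library size only. STAT2 was higher with all drugs and was a DEG with vancomycin (1.21 ± 0.11). JAK1 was called lower with each drug, by -0.43 with iohexol, -0.78 with cisplatin and -0.58 with vancomycin. Of 14 negative regulators other than SOCS3, 1 of 13 tested was called with iohexol, 8 with cisplatin (5 higher, 3 lower) and 5 with vancomycin (2 higher, 3 lower), and none was a DEG. With library size only, all 8 cisplatin calls were higher. The single iohexol call was SOCS1 (0.91).

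Of 26 reported STAT3 target genes, most of the acute-phase genes were too low to be tested, and SERPINA3, HP, A2M and CRP had at most 1 read in any sample. The median log2 fold change of the list was -0.14 with iohexol, -0.12 with cisplatin and 0.99 with vancomycin, beside 0.01, 0.01 and -0.01 over all genes. With vancomycin 16 of 19 tested were called, 12 higher and 4 lower, beside 57.9% of all genes (29% higher, 28.8% lower). FOS, an immediate early gene, rose by 4.23 ± 0.17, and SAA1, an acute-phase protein, by 3.26 ± 0.17. CEBPB, SAA2, CEBPD, ICAM1, VEGFA, TIMP1 and JUNB rose by 1.02 to 1.73. FGB, a fibrinogen chain, fell by 3.08, and BCL2L1, a survival gene, by 1.38, and CCND1, a driver of the cell cycle, was 0.287 times its control level. With cisplatin 15 of 18 tested were called, 8 higher and 7 lower, beside 59.8% of all genes (29.2% higher, 30.6% lower), and FOS was the DEG (2.96 ± 0.16). With iohexol 13 of 19 were called, 6 higher and 7 lower, beside 21% of all genes (11.2% higher, 9.77% lower). The iohexol DEGs were SAA1 (1.72) and HIF1A (1.04), which were higher, and JUNB (-1.20) and FGB (-1.75), which were lower. The iohexol count rested on single samples, as it was 7 without control replicate 2, 8 without iohexol replicate 1 and 8 without iohexol replicate 2.

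**Figure D4:**
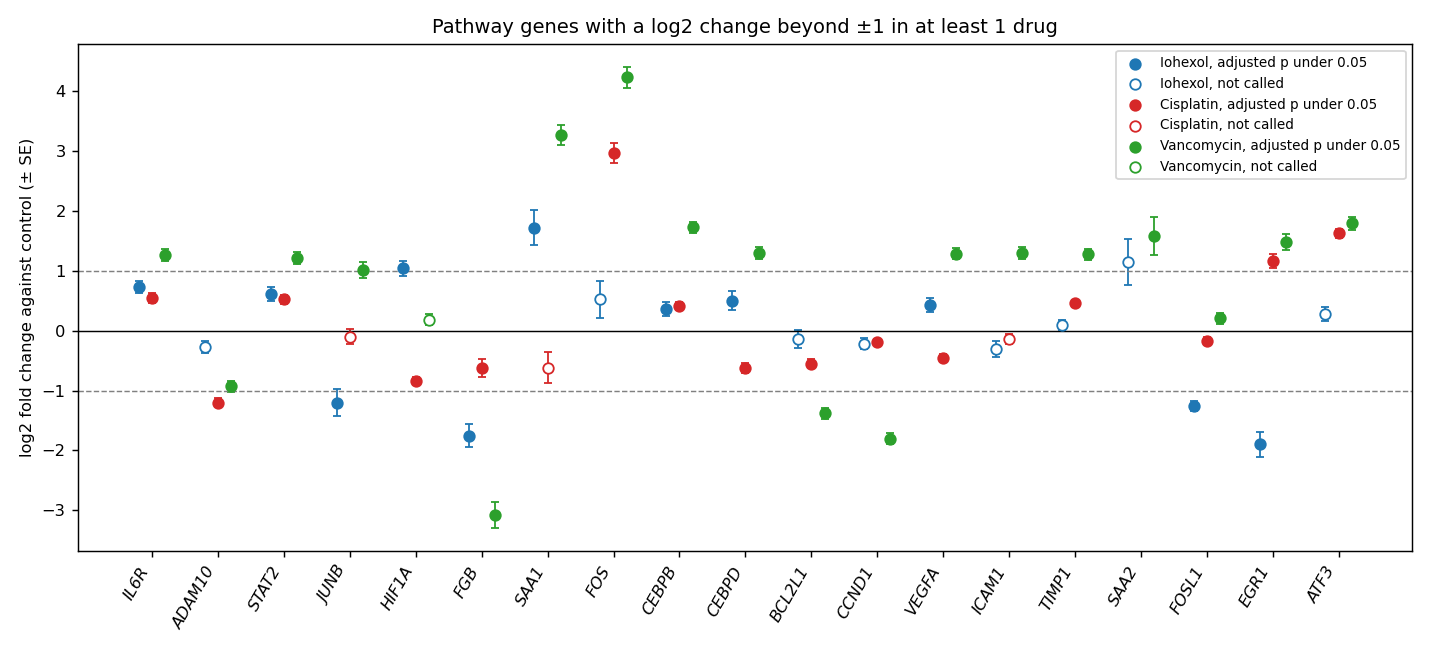
log2 fold change against control (± SE of the fit) of pathway genes outside the 10 members that were DEGs with at least 1 drug. Filled points had an adjusted p under 0.05, open points did not, and a missing point was not tested. FOS reaches 4.23 with vancomycin and 2.96 with cisplatin.

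Of 12 transcription factors known to act on cytokine genes, 5 were called with iohexol, all lower, 9 with cisplatin (4 higher, 5 lower) and 9 with vancomycin (8 higher, 1 lower). Over all genes, 11.2%, 29.2% and 29% were called higher and 9.77%, 30.6% and 28.8% lower with iohexol, cisplatin and vancomycin. With library size only the cisplatin calls were 5 higher and 2 lower. ATF3, a stress-induced factor, was higher with cisplatin (1.62 ± 0.08) and vancomycin (1.79 ± 0.11). EGR1, an immediate early gene, was lower with iohexol (-1.90 ± 0.21) and higher with cisplatin (1.16 ± 0.12) and vancomycin (1.48 ± 0.13). FOSL1, an AP-1 subunit, was lower with iohexol (-1.26 ± 0.09). The iohexol count was 2 without control replicate 2 and 3 without control replicate 3.

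Among 12669 protein-coding genes with a mean of at least 1 CPM, those with a pattern closest to a member were ranked by Pearson correlation of log2 CPM over the 12 samples. The samples fall into 4 groups, so that these values describe mostly the group levels. For IL11 they were AUP1, MIDN, PRPF3, KRT18 and BET1L (r = 0.984 to 0.987). For LIF they were MYRF, TUBA1B, SELENON, LTBP2 and TYMS (r = 0.932 to 0.972). For IL6 they were RGS5, SLC17A5, STX3, LCP1 and ITM2B (r = 0.981 to 0.989). For SOCS3 they were FIS1, SLC39A7, FAM219A, IFI27L2 and OS9 (r = 0.987 to 0.993).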

How the data were processed

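The authors deposited whole-number read counts for each gene in 12 samples, with no scaling applied, and all sample columns were matched to the labels (0 columns were left unused). The submitters' processing notes name CASAVA 1.8, fastp, HISAT2 2.0.5, featureCounts 1.5.0-p3 and DESeq2 1.20.0, without roles. The build and the strand setting are not given in the sources used here, and the library kit is not described as marking strand, so reads of overlapping genes cannot be told apart. All 58735 gene IDs occur in GENCODE 29 (GRCh38), 58724 with the same start and end.

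Each drug was compared with control in its own fit with edgeR 4.0.16 in R 4.3.3 (TMM, filterByExpr with at least 10 counts, quasi-likelihood test), and drugs with each other in a fit of all 12 samples (17073 genes). Benjamini-Hochberg adjustment covered every gene tested. A gene was called at an adjusted p under 0.05 and was a DEG when its log2 change also passed 1 in either direction. RPKM used the gene lengths in the table. Steps were tested on simulated data. Alternatives were DESeq2 1.42.0, limma-voom (limma 3.58.1), RLE factors, library size only, other filters, a fit of all groups, a replicate block, fits of 2 drug groups and leaving out each sample; leaving out control replicate 1 and iohexol replicate 3 together was chosen after seeing the data. Named were all members, pathway genes that were DEGs with at least 1 drug, genes at 0 to 3 counts in all samples, overlapping genes and the 5 genes closest in pattern to IL11, LIF, IL6 and SOCS3; other genes of the lists were named after their values were seen, with a few left unreported here. The members and lists were chosen with earlier results of these data known. Plots were made in Python 3.11.15 (matplotlib 3.10.9).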

Additional observations from a re-analysis of the deposited data

How the results depend on the processing

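For drug against control, 407 values of a member's log2 fold change under an alternative kept their side of the threshold (12 of them, called in neither fit, changed sign), 18 passed it newly, 4 no longer passed it and none that was called changed sign. Between drugs 549 kept their side (7, called in neither fit, changed sign), 10 passed newly, 10 no longer passed and 1 reversed: STAT3 for iohexol against vancomycin was 0.17 (adjusted p = 0.038) with library size only, from -0.04 (not called). That scaling moved the median log2 change over all genes with cisplatin to 0.23 and the share of DEGs that were higher to 65% from 46.6%; for iohexol against cisplatin the share was 54.1% against 65%, for iohexol against vancomycin 64.1% against 47.3% and for cisplatin against vancomycin 64.8% against 43%. The cause of the changes below was not tested.

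For iohexol, members that were DEGs numbered 1 with library size only and 1 with at least 10 counts in every sample. Called other cytokines numbered 1 with DESeq2, with no filter and in the fit of all 4 groups. Called negative regulators numbered 2 with DESeq2, with no filter and with at least 10 counts in every sample, and 3 with library size only and in the fit of all 4 groups. Called other receptors numbered 2, and called shedding proteases 1, with no filter and in the fit of all 4 groups. Without control replicate 1 and iohexol replicate 3 together, an alternative chosen after seeing the data, the called counts were 5 members, 1 other cytokine, 2 other receptors, 1 shedding protease, 5 JAK and STAT genes, 3 negative regulators, 16 STAT3 targets and 10 induction factors. For cisplatin, members that were DEGs numbered 2 with library size only, called other cytokines 2 with library size only, with no filter, with at least 10 counts in every sample and in the fit of all 4 groups, and all DEGs 1691 with at least 10 counts in every sample, beside 2594.

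Leaving out each sample in turn gave, with iohexol, 3 to 5 members called, 1 to 2 members that were DEGs, 0 to 1 other cytokines, 0 to 1 shedding proteases, 1 to 2 negative regulators, 7 to 15 STAT3 targets and 2 to 7 induction factors. It gave 1 to 2 members that were DEGs (2 without control replicate 2) and 1 to 3 other cytokines with cisplatin, and 1 to 3 other cytokines with vancomycin (1 without vancomycin replicate 2). Of the other cytokines with iohexol 1 was called without control replicate 1, of the negative regulators 2, and of the shedding proteases 1 without iohexol replicate 3. With cisplatin 2 other cytokines were called without control replicate 2, control replicate 3 or cisplatin replicate 2, and 3 without cisplatin replicate 3.

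Samples with the same replicate number did not deviate together (mean r = -0.02 over 18 pairs, 1 of them over 0.1), so the numbers were not taken as pairs. With a replicate block, 3, 7 and 9 members were called with iohexol, cisplatin and vancomycin.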

Other observations

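Oncostatin M, the ligand of OSMR, was scarcely counted although OSMR was among the most abundant members. Its gene, OSM, had 1 to 7 reads in control and 1 to 5 in iohexol samples. Counts were 10 to 15 under cisplatin and 7 to 24 under vancomycin, and OSM did not pass the filter in any comparison with control. In the fit of all 12 samples it was tested, and it was lower with iohexol than with cisplatin (log2 difference -1.86 ± 0.67, edgeR adjusted p = 0.0247) and than with vancomycin (-2.40 ± 0.64, adjusted p = 0.00358). CNTFR, the alpha receptor of ciliary neurotrophic factor, had 0 to 3 reads in the control samples and 6 to 17 with vancomycin and was not tested either.

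IL31RA, a receptor that pairs with OSMR, was 10.1 ± 0.58 CPM in the control samples (SD, n = 3) and 5.75 ± 1.84 CPM with vancomycin. Its log2 fold change with vancomycin was -0.85 ± 0.20 in edgeR's quasi-likelihood test (adjusted p = 0.000757). It was also called lower with cisplatin (-0.36, adjusted p = 0.0263) but not with iohexol (-0.31, adjusted p = 0.176). The samples of all drugs lay below every control sample. These genes were chosen after their values were seen.

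Control replicate 1 held the lowest control value of IL11, LIF, CLCF1, SOCS3 and STAT3 and the highest of IL6, OSMR, LIFR and IL6ST. Iohexol replicate 3 held the lowest iohexol value of IL11, LIF, CLCF1, IL11RA, SOCS3 and STAT3 and the highest of OSMR, LIFR and IL6ST. Whether one property of these libraries links these values was not tested.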
